A study of Rattus norvegicus with 16 samples.

Results

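The genes described here are 8 genes that mark intestinal stem cells or answer to Wnt signalling: Lgr5, Ascl2, Axin2, Olfm4, Sox9, Prom1, Ephb2 and Ephb3. They were chosen by name, and every probe that the array design assigned to one of these symbols was taken. This gave 11 probes on 20 spots among 30367 probes of the array. Lgr5, Sox9 and Prom1 had 2 probes each and the other 5 genes had 1. All 11 probes were among the 21174 that were bright enough to be tested, and 7 of them were well above background on all 16 arrays. The probe of Olfm4 and the second probe of Lgr5 passed the filter only through middle intestine arrays, and the second probe of Sox9 only through stomach arrays.

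The study asked what enteral obestatin, a peptide made from the ghrelin precursor, does to the gut of suckling Wistar Han rats, given as Wistar in the labels. From day 14 of life the C group received saline and the OH group obestatin at 250 nmol/kg body weight, given 2 times daily until day 21. Stomach and the middle part of the intestine were measured in both groups, with 4 arrays of 4 rats in each of the 4 groups. RNA of the rat's tissue was labelled with Cy5 and a common pool of RNA from all animals and both tissues with Cy3, so that each value is a log2 ratio of tissue to pool and a negative value is a level below the pool. Whole organ pieces were extracted, and in such samples fewer cells of a type and less RNA per cell cannot be told apart. The values can be compared between arrays for a probe, but not between probes.

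The lining of the small intestine is renewed from stem cells at the base of the crypts. Wnt proteins bind Frizzled and Lrp receptors, β-catenin then escapes degradation, and with Tcf factors it switches on target genes. R-spondins, bound by Lgr5 and its relatives, strengthen the signal, and Axin2 is a target that feeds back to restrain it. Ascl2 is a transcription factor of crypt base stem cells, Olfm4 a glycoprotein that these cells secrete, and Sox9 a transcription factor of the crypt base and of Paneth cells. EphB2 and EphB3 are receptors that keep crypt cells in their place through contact with ephrin-B, and Prom1 is a membrane protein of stem and progenitor cells that other epithelia carry as well. In the stomach, Lgr5 marks stem cells at the base of antral glands.

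The probes are 60 bases long, and 5 of them are shown because their position matters for what follows. The first Lgr5 probe lay at chr7:54738144-54738203 on the minus strand of rn4 and ran across the stop codon, in capitals, while the second lay 253 bases downstream in the 3′ UTR at chr7:54737891-54737950. The first Sox9 probe lay at chr10:102388891-102388950 and the second at chr10:102387042-102387101, 1849 bases upstream, where it began with the start codon, in capitals. The probes of Axin2 at chr10:98321105-98321164 and of Olfm4 at chr15:61289047-61289106, all on the plus strand like those of Sox9, were open in 1 reading frame over their whole length.
Lgr5 probe 1: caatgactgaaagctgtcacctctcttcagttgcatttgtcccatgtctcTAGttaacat
Sox9 probe 1: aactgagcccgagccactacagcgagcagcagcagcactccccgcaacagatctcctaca
Sox9 probe 2: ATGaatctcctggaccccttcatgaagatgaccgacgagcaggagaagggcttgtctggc
Axin2: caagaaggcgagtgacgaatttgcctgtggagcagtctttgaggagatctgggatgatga
Olfm4: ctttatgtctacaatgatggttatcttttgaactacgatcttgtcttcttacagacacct

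The remaining probes lay at chr1:203242130-203242189 for Ascl2, chr5:155423038-155423097 for Ephb2 and chr11:82027632-82027691 for Ephb3, each on the minus strand, and at chr14:72230384-72230443 and chr14:72230199-72230258 for the 2 probes of Prom1, on the plus strand.

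Upstream sequence from RefSeq (GRCr8) was found for 6 of the 8 genes, with 2 starts for Prom1. The 250 bases before each start were searched on both strands for CTTTGAA and CTTTGAT, versions of the site of Tcf and Lef factors that share their first 6 letters. Only Axin2 held a match among these 6 genes, with CTTTGAA 232 and CTTTGAT 132 bases before the start. Of 33469 RefSeq upstream sequences of that length, 4.68% held the first motif, 3.15% the second and 0.245% both. The sequences of Axin2 (chr10:94398535-94398784, plus strand) and of Olfm4 (chr15:61815981-61816230, plus strand) are shown with the matches in capitals, since these genes differed most between the channels and between the tissues in the results that follow.
Axin2: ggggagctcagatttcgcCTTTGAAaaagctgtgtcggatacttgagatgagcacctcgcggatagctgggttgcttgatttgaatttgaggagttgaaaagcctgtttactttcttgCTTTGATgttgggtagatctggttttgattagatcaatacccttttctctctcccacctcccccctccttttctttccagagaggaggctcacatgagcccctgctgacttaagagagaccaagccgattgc
Olfm4: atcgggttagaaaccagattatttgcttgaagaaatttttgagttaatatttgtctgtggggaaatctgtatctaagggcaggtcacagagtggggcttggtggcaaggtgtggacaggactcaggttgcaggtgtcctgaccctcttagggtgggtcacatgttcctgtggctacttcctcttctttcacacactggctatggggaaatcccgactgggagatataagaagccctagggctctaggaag

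The arrays were of similar quality, with 69.4 to 77.6% of spots well above background in Cy5 and correlations of 0.707 to 0.943 between arrays of a group. The median raw Cy3 signal was 188 to 195 on C arrays and 341 to 399 on OH arrays. Each group lay on 1 slide of its own, and all C slides were scanned on 1 day and all OH slides on another. The treatment therefore cannot be told apart from the slide or the day of scanning. In the study each treatment had litters of its own, so that the treatment cannot be told apart from the litters either. Nor can the tissue be told apart from the slide, so that the tissue differences given below are also differences between slides. The labelled tissues carried their markers: 10 of 10 gastric gland genes were lower and 12 of 13 enterocyte genes higher in C middle intestine than in C stomach. Of all genes 22.8% were lower and 23.9% higher. Some arrays stood apart in markers of parts of the organ, and whether different parts were sampled was not tested. Gastrin (Gast), the hormone of the antrum, had log2 ratios of 3.34 to 4.73 on 6 stomach arrays but -2.01 on C stomach replicate 2 and -2.02 on OH stomach replicate 4. The mean log2 ratio of 8 striated muscle genes was -1.05 on C stomach replicate 2 against 3.30 to 3.98 on the other 3 C stomach arrays, and it was -0.49 to 1.11 on OH stomach arrays. In middle intestine, the mean of Gast and Pdx1 was 0.33 on OH replicate 1 against at most -2.09 on its fellows. Most of this lay in Pdx1, at 1.67 against at most -2.38, whereas Gast was -1.02 against at most -1.51.

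Between the tissues, the crypt base genes differed in both directions. Olfm4, Ascl2, Axin2 and Ephb2 were higher in middle intestine than in stomach of C rats, whereas Ephb3 and Prom1 were lower. Lgr5 and Sox9 had 2 probes each that did not tell the same: the brighter probe did not pass and the dimmer probe did, higher for Lgr5 and lower for Sox9. In all 9 of the 11 probes passed an adjusted p of 0.05 (limma, Benjamini-Hochberg). For Olfm4 and the dimmer probes of Lgr5 and Sox9, which were tested only because they were bright in 1 tissue, passing was in part set by the filter. Of the 7 probes well above background on all 16 arrays, 6 passed in C rats and 6 in OH rats. The share that passed among all probes that bright was not computed, so that these counts have no background of their own. Of all probes tested 44.9% passed, 22.3% higher and 22.7% lower, so that the members' 5 higher and 4 lower are to be read against tissues that differed in a large share of all probes. In OH rats, which share no array with C rats, 8 of 11 probes of 7 genes passed, 5 higher and 3 lower, against 38.2% of all probes, with 19.1% higher and 19.2% lower. The log2 ratios of the tissues did not overlap for 7 of 11 probes in C rats and 5 of 11 in OH rats, beside 43.8% and 35.2% of all probes.

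**Figure D1:**
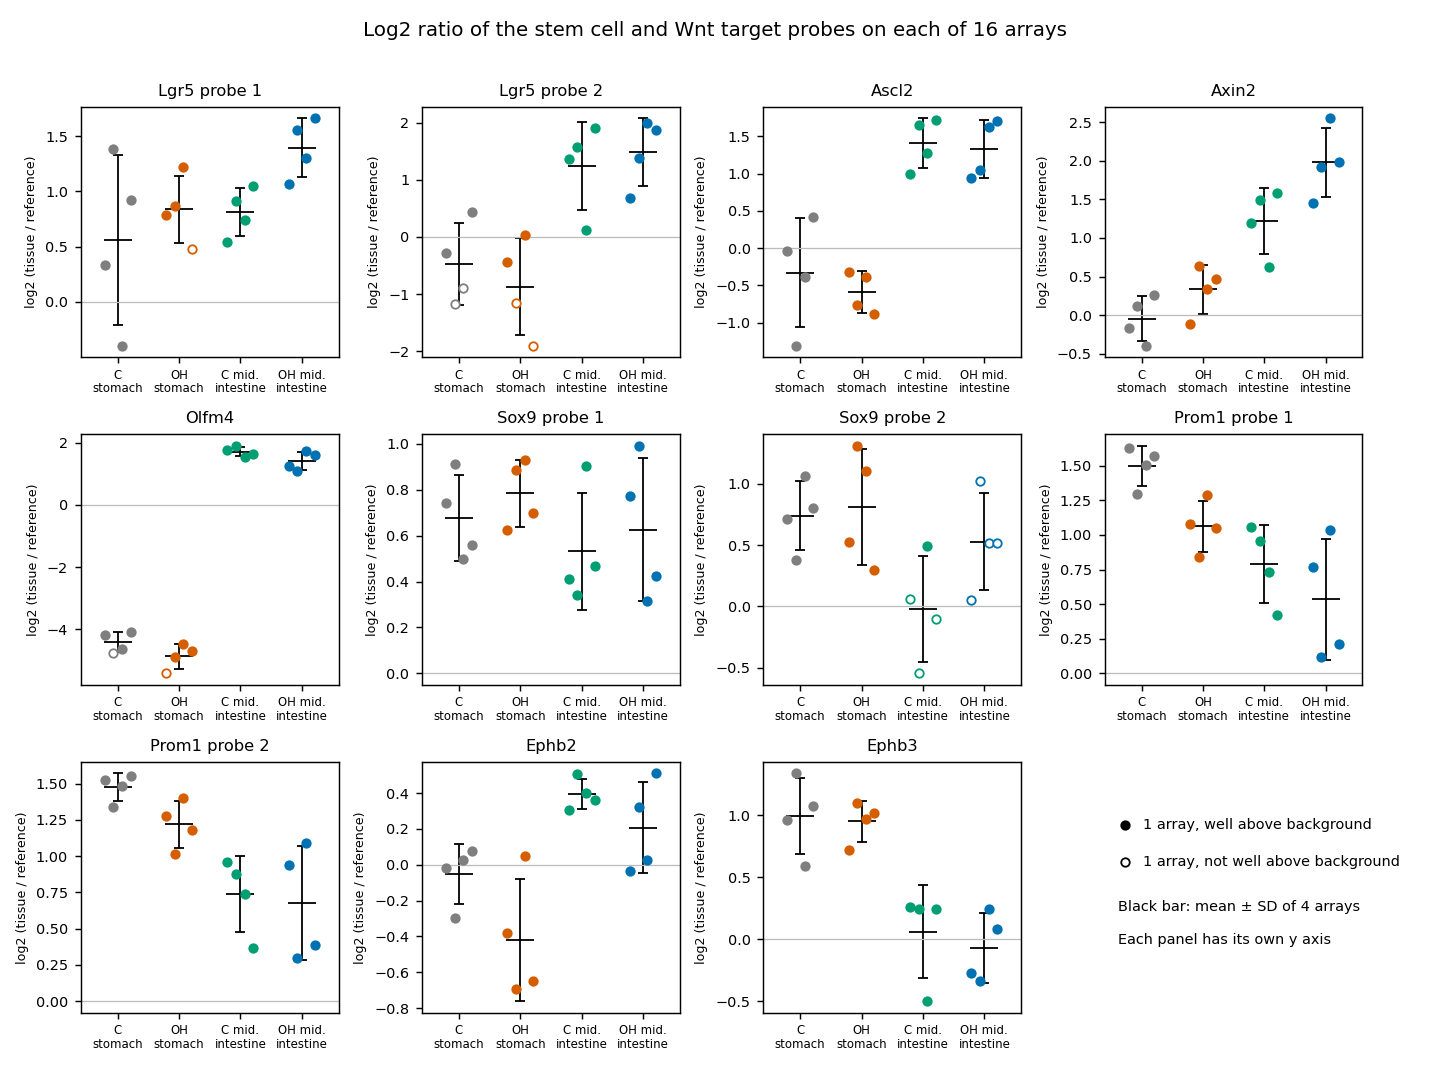
The log2 ratio of tissue to reference pool is plotted for each of the 11 probes, with 1 point per array in the 4 groups and a bar for the mean ± SD (n = 4). Olfm4 separated the tissues without overlap, Prom1 and Ephb3 ran the other way, and open points mark arrays on which a probe was not well above background.

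Olfm4 showed the widest difference. Its log2 ratios were -4.18, -4.77, -4.64 and -4.09 in C stomach and 1.76, 1.91, 1.56 and 1.65 in C middle intestine. In OH rats they were -5.43, -4.91, -4.48 and -4.69 in stomach and 1.26, 1.09, 1.73 and 1.60 in middle intestine. Every intestinal array was thus above the pool and every stomach array far below it, with 3 of 4 arrays in each stomach group well above background. The difference was 6.14 ± 0.21 (SE) on the log2 scale in C rats, or 70.4-fold (adjusted p = 2.7e-11), and 6.30 ± 0.21 in OH rats (adjusted p = 2.3e-11). The probe was tested through middle intestine arrays alone, so that passing was in part set by the filter. Its stomach signal was low, so that the fold is approximate.

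Ascl2 had log2 ratios of -0.04, -1.31, -0.39 and 0.42 in C stomach against 1.00, 1.65, 1.27 and 1.72 in C middle intestine. In OH rats the values were -0.32, -0.77, -0.39 and -0.88 against 0.94, 1.05, 1.63 and 1.70. The tissues did not overlap in either treatment group. The gene was 3.33-fold higher in middle intestine in C rats (log2 1.74 ± 0.31, adjusted p = 0.00041) and 3.78-fold in OH rats (1.92 ± 0.31, adjusted p = 0.00020). Its lowest value in each stomach group fell on the array with the low gastrin level, C replicate 2 and OH replicate 4. In OH stomach the next value, -0.77, was close to it and fell on replicate 2, where gastrin stood at 3.34. The part of the antrum in this was not tested. Without these arrays and OH middle intestine replicate 1, a choice made after seeing the data, the differences were 1.41 and 1.95.

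Axin2 had log2 ratios of -0.16, 0.12, -0.39 and 0.26 in C stomach and 1.20, 1.48, 0.63 and 1.58 in C middle intestine. In OH rats they were -0.11, 0.64, 0.34 and 0.46 in stomach and 1.46, 1.92, 2.55 and 1.99 in middle intestine. No intestinal array reached down to the stomach arrays of its treatment group. The difference came to 1.27 ± 0.25 in C rats (2.41-fold, adjusted p = 0.0010) and 1.64 ± 0.25 in OH rats (3.13-fold, adjusted p = 0.00013). With each channel set against its own array, as described below, Cy5 differed by 1.66 ± 0.29 in C rats and 1.74 ± 0.29 in OH rats. Cy3, the pool, also differed between the C tissues, by 0.42 ± 0.06 (limma, adjusted p = 6.8e-05). In OH rats the Cy3 difference was 0.13 ± 0.06 (adjusted p = 0.13). Whether the ratio's tissue difference was larger in OH rats because of the pool was not tested.

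The 2 probes of Lgr5 disagreed. The probe in the 3′ UTR read -0.28, -1.18, -0.90 and 0.44 in C stomach and 1.37, 1.58, 0.13 and 1.91 in C middle intestine, with -0.44, -1.16, 0.03 and -1.90 against 0.68, 1.39, 2.00 and 1.88 in OH rats. It was well above background on 2 of 4 arrays in each stomach group and on all intestinal arrays. The tissues overlapped in C rats, where C middle intestine replicate 3 fell below C stomach replicate 4, but not in OH rats. The difference was 1.73 ± 0.48 in C rats (adjusted p = 0.0095) and 2.36 ± 0.48 in OH rats (adjusted p = 0.0014). As with Ascl2, the array with the low gastrin level was the lowest of each stomach group, but the probe was not well above background on either of these arrays. Without the 3 arrays named above the differences were 1.49 and 2.28.

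The probe over the stop codon of Lgr5, which had 1 spot and the higher Cy5 signal, gave 0.33, 1.38, -0.40 and 0.92 in C stomach and 0.54, 0.91, 0.74 and 1.05 in C middle intestine. In OH rats it gave 0.79, 0.87, 1.22 and 0.48 against 1.06, 1.55, 1.30 and 1.66. Tissues overlapped in both groups, and C stomach replicate 2 was here the highest of its group rather than the lowest. The difference of 0.25 ± 0.30 in C rats had a 95% confidence interval of -0.38 to 0.88 (adjusted p = 0.52), and that in OH rats was 0.56 ± 0.30 (-0.08 to 1.19, adjusted p = 0.16). Without C stomach replicate 2 the C difference was 0.52 and without C stomach replicate 3 it was -0.069. Only the probe downstream of the stop codon passed, and it was tested through the intestinal arrays alone, so that no tissue difference is given for Lgr5 as a gene.

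Of the ephrin receptors, Ephb2 was slightly higher and Ephb3 lower in middle intestine. Ephb2 read -0.016, -0.29, 0.028 and 0.075 in C stomach against 0.31, 0.51, 0.40 and 0.36 in C middle intestine, without overlap. In OH rats the values were -0.38, -0.69, 0.049 and -0.65 against -0.032, 0.32, 0.025 and 0.51. Here OH stomach replicate 3 lay above the 2 lowest intestinal arrays. The difference was 0.45 ± 0.16 in C rats (1.36-fold, adjusted p = 0.040) and 0.63 ± 0.16 in OH rats (1.54-fold, adjusted p = 0.0077). The call in C rats was lost when any of the 4 C middle intestine arrays or C stomach replicates 1, 2 or 3 was left out, with adjusted p-values up to 0.11.

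Ephb3 read 0.96, 1.34, 0.59 and 1.08 in C stomach and 0.26, 0.25, -0.50 and 0.25 in C middle intestine. In OH rats it read 0.72, 1.1, 0.97 and 1.02 in stomach and -0.27, -0.34, 0.25 and 0.08 in middle intestine. All stomach arrays lay above all intestinal arrays. It was lower in middle intestine by -0.93 ± 0.20 in C rats (1.91-fold, adjusted p = 0.0017) and by -1.02 ± 0.20 in OH rats (2.03-fold, adjusted p = 0.0010).

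Both probes of Prom1 were lower in middle intestine. The brighter probe read 1.62, 1.30, 1.51 and 1.57 in C stomach and 1.05, 0.96, 0.74 and 0.42 in C middle intestine, and the other probe 1.34 to 1.55 and 0.37 to 0.96. In OH rats the brighter probe read 1.08, 0.84, 1.29 and 1.05 in stomach and 0.77, 0.12, 1.03 and 0.21 in middle intestine. The tissues were apart in C rats and overlapped in OH rats. The differences in C rats were -0.71 ± 0.20 and -0.74 ± 0.18 (adjusted p = 0.0092 and 0.0038), and in OH rats -0.53 ± 0.20 and -0.54 ± 0.18 (adjusted p = 0.046 and 0.026). For the brighter probe the call in OH rats was lost when any of OH stomach replicates 1, 3 or 4, OH middle intestine replicates 2 or 4, C stomach replicates 1, 3 or 4, or C middle intestine replicates 2 or 3 was left out, with adjusted p-values up to 0.13. For the other probe it was lost without OH stomach replicate 1 or 3 or OH middle intestine replicate 2 or 4, up to 0.081.

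Sox9 differed little. The brighter probe read 0.74, 0.91, 0.50 and 0.56 in C stomach and 0.41, 0.34, 0.91 and 0.47 in C middle intestine, and in OH rats 0.62, 0.89, 0.93 and 0.70 against 0.77, 0.99, 0.32 and 0.42. All groups overlapped, and the differences were -0.15 (95% confidence interval -0.50 to 0.21) in C rats and -0.16 (-0.51 to 0.20) in OH rats, with adjusted p-values of 0.50 and 0.48. With Cy5 alone the sign turned, to 0.18 and 0.067. The probe at the start codon read 0.71, 0.38, 1.06 and 0.81 in C stomach and 0.06, -0.55, 0.50 and -0.11 in C middle intestine, where 1 of 4 arrays was well above background. Its difference of -0.77 ± 0.27 passed in C rats (adjusted p = 0.031), but fell to -0.13 (adjusted p = 0.19) with another background correction, normexp. That call was also lost without C stomach replicate 1, 3 or 4 or C middle intestine replicate 1, 2 or 4, with adjusted p-values up to 0.10. In OH middle intestine no array was well above background, and no fold is given there (adjusted p = 0.43).

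**Figure D2:**
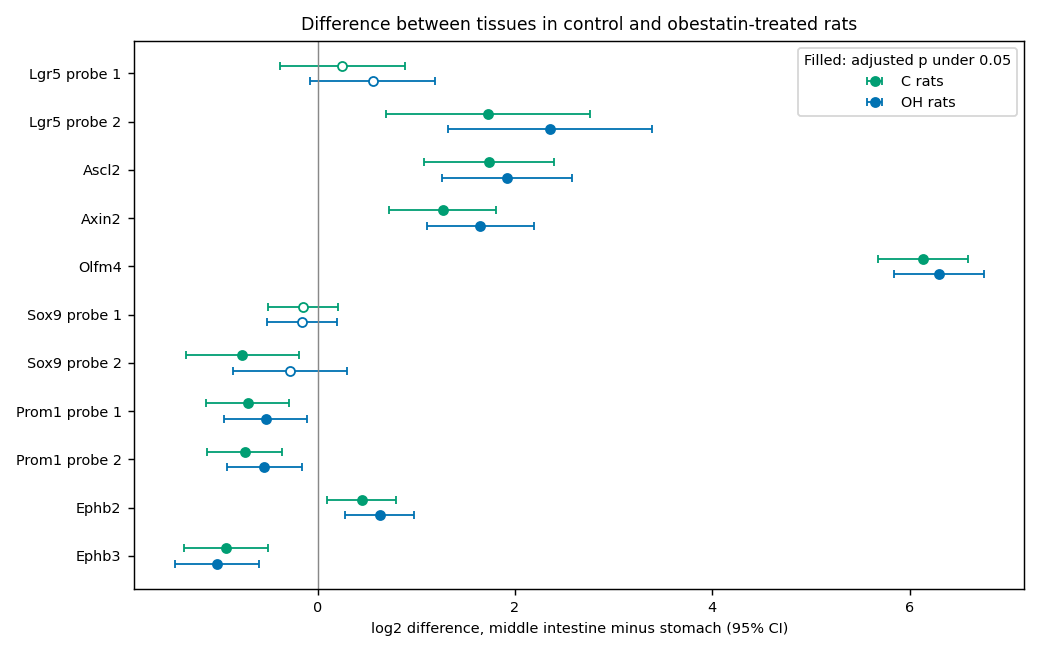
The log2 difference between middle intestine and stomach is plotted for each probe with its 95% confidence interval, in C rats and in OH rats. Values run from 6.14 and 6.30 for Olfm4 to -0.93 and -1.02 for Ephb3, and filled points passed an adjusted p of 0.05.

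The groups can be put in order for each gene, although most neighbours in that order overlapped. For Ascl2 and Olfm4 the order was C middle intestine, OH middle intestine, C stomach, OH stomach, and only the step between tissues was free of overlap. For Axin2 the order was OH middle intestine, C middle intestine, OH stomach, C stomach, with means of 1.98 ± 0.45, 1.22 ± 0.43, 0.33 ± 0.32 and -0.05 ± 0.29 (SD, n = 4), and each neighbour overlapped the next. For Ephb3 both stomach groups came first, 0.99 ± 0.31 in C and 0.95 ± 0.16 in OH, clear of 0.06 ± 0.37 and -0.07 ± 0.28 in C and OH middle intestine. For the brighter Prom1 probe C stomach came first, at 1.50 ± 0.14, with a gap to OH stomach at 1.06 ± 0.18.

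Obestatin changed none of the 11 probes past the threshold. In stomach 0 of 11 passed (limma, smallest adjusted p = 0.46), as did 0% of all probes. In middle intestine 0 of 11 passed (smallest adjusted p = 0.26) against 0.368% of all probes, and 0 of 11 differed in their response between the tissues (smallest adjusted p = 0.90, 0% of all probes). At an unadjusted p of 0.05 in limma, 3 probes passed in stomach and 1 in middle intestine, beside 10.6% and 10.5% of all probes. The log2 differences lay between -0.46 and 0.38 in stomach, with a median of -0.26, and between -0.30 and 0.76 in middle intestine, with a median of -0.06. The medians over all probes were 0.0067 and 0.0011. The widest interval in each tissue, that of the second Lgr5 probe, ran from -1.42 to 0.64 in stomach and from -0.79 to 1.27 in middle intestine, so that changes of that size could not have been told from none.

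Axin2 had the largest difference between OH and C middle intestine. The values given above overlapped only through OH replicate 1, at 1.46, and the mean was higher by 0.76 ± 0.25 (95% confidence interval 0.21 to 1.30, limma p = 0.0096, adjusted p = 0.26, exact permutation p = 0.086). In stomach the difference was 0.38 ± 0.25 (adjusted p = 0.62), and the response did not differ between tissues past the threshold (0.38 ± 0.36, adjusted p = 0.92). Each channel, taken after Lowess normalization, was also set against the 75th percentile of its own array. Effects that both channels of a slide share stay in these values. Which channel the difference of the ratio came with was therefore not tested. The Cy5 signal of the tissue differed by 0.03 ± 0.29 between OH and C middle intestine. The Cy3 signal, which comes from the reference pool, was lower by -0.71 ± 0.06 on OH arrays (adjusted p = 9.4e-08). Whether 1 preparation of the pool served all slides is not given in the sources used here, and differences of the ratio between OH and C are to be read beside those of Cy3. The Cy3 level was -2.44 to -2.18 on the 4 C arrays and -3.09 to -2.92 on the 4 OH arrays, without overlap. In stomach the Cy5 difference was -0.04 ± 0.29 and the Cy3 difference -0.43 ± 0.06 (adjusted p = 3.1e-05).

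In Cy3, Olfm4 differed in the other direction. Its log2 ratio was lower on OH arrays by -0.46 ± 0.21 in stomach (adjusted p = 0.47, exact permutation p = 0.17) and by -0.30 ± 0.21 in middle intestine (adjusted p = 0.70). The Cy5 differences were 0.06 ± 0.21 and 0.22 ± 0.21, whereas Cy3 was higher on OH arrays by 0.52 ± 0.04 and 0.53 ± 0.04 (adjusted p = 4.9e-07 and 1.3e-07). The Cy3 level of Olfm4 was -1.23 to -1.04 on C stomach arrays and -0.71 to -0.60 on OH stomach arrays. When arrays were also scaled to a common spread, the stomach difference turned to 0.26 (adjusted p = 0.67).

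Among all member probes, the Cy3 signal differed between OH and C at an adjusted p of 0.05 for 4 of 11 in stomach and 7 of 11 in middle intestine, beside 43.8% and 60.7% of all probes. The Cy5 signal passed for 0 of 11 in either tissue (limma, smallest adjusted p = 0.39), beside 0.109% of all probes in stomach and 2.8% in middle intestine. The difference in Cy3 was larger in size than that in Cy5 for 5 probes in stomach and 8 in middle intestine, and the sign of the ratio opposed that of Cy5 for 5 probes in each tissue. Between the tissues, Cy3 passed for 2 of 11 probes in C rats and 1 of 11 in OH rats (limma). In C rats these were Axin2 and the brighter Sox9 probe (0.35 ± 0.12, adjusted p = 0.043). In OH rats it was Ascl2 (0.21 ± 0.03, adjusted p = 0.0016). Cy5 passed between the tissues for 8 of 11 in each treatment group. The pool's part in each difference of the ratio was not tested, and slides scanned on different days held the C and OH groups.

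**Figure D3:**
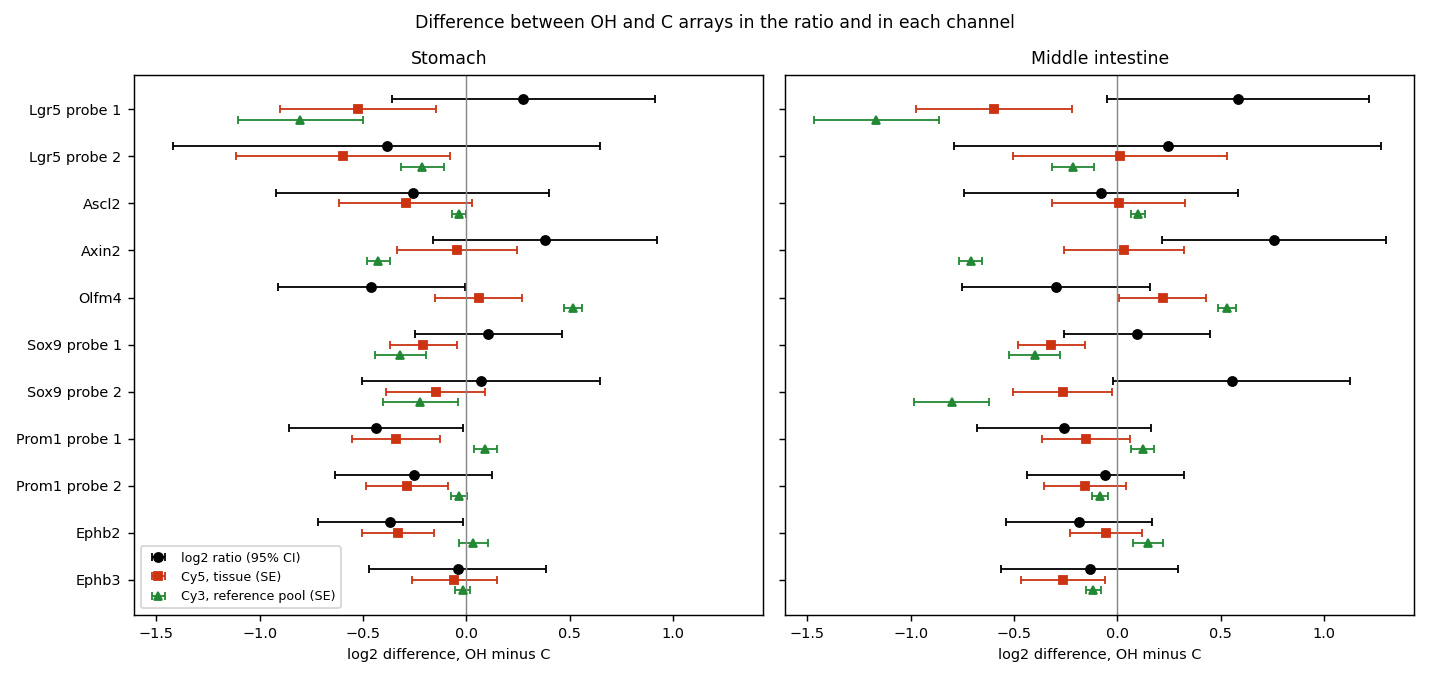
For each probe, the difference between OH and C arrays is plotted on the log2 scale for the ratio (with 95% confidence interval), for Cy5 and for Cy3 (with SE), in stomach and middle intestine. For Axin2 in middle intestine the ratio stands at 0.76 while Cy5 stands at 0.03 and Cy3 at -0.71.

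The other probes showed smaller or less even differences. The brighter Lgr5 probe was higher on OH middle intestine arrays by 0.58 ± 0.30 (adjusted p = 0.54), and it was the only member probe whose groups were apart in that tissue, beside 5.86% of all probes. Its Cy5 signal was lower by -0.60 ± 0.38 and its Cy3 signal by -1.17 ± 0.30. The second Lgr5 probe differed by 0.24 ± 0.48 in middle intestine and -0.39 ± 0.48 in stomach. Ascl2 differed by -0.08 ± 0.31 and -0.26 ± 0.31, and Ephb3 by -0.13 ± 0.20 and -0.04 ± 0.20, in the same order. In stomach the brighter Prom1 probe was lower by -0.44 ± 0.20 (adjusted p = 0.46, exact permutation p = 0.029, the smallest that 4 against 4 arrays allow) and was the only member probe whose C and OH arrays did not overlap there, beside 7.59% of all probes. The other Prom1 probe was lower by -0.26 ± 0.18. Ephb2 was lower in OH stomach by -0.37 ± 0.16 (adjusted p = 0.46, exact permutation p = 0.11). For the brighter Sox9 probe the stomach difference was 0.11 ± 0.17 and the middle intestine difference 0.09 ± 0.17. The other Sox9 probe gave 0.07 ± 0.27 in stomach. In middle intestine that probe was well above background on 1 C array and 0 OH arrays, and its ratio of 0.55 ± 0.27 (adjusted p = 0.50) is given with no fold. For Prom1 and Ephb2 the difference in Cy5, -0.34 ± 0.21 and -0.33 ± 0.18, was close to that in the ratio, and that in Cy3 was 0.09 ± 0.05 and 0.03 ± 0.07.

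**Figure D4:**
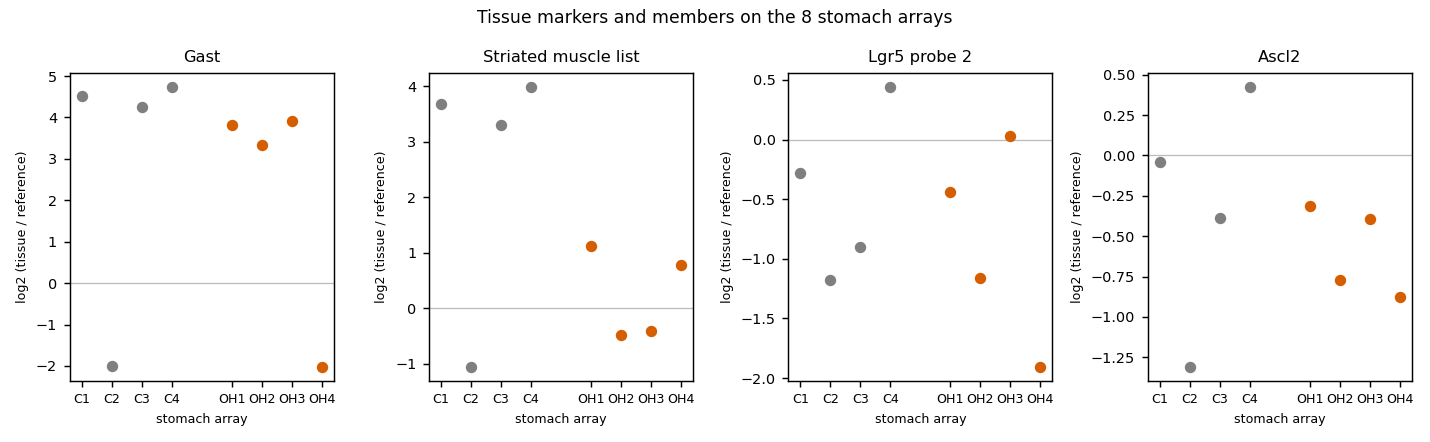
The log2 ratios of Gast, of 8 striated muscle genes (mean), of the second Lgr5 probe and of Ascl2 are plotted for the 8 stomach arrays, C1 to C4 and OH1 to OH4 being the replicates. C2 and OH4, at -2.01 and -2.02 for Gast, are also the lowest of their groups for this Lgr5 probe and Ascl2. Of the members not plotted, the second Sox9 probe was also lowest on both, at 0.38 and 0.30. The brighter Lgr5 probe was instead highest of its group on C2, at 1.38. The share of all probes that were lowest on both arrays was not computed. The plotted Lgr5 probe was not well above background on either of these arrays.

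The rest of the Wnt pathway was described with 1 probe per gene, the brightest. Here and in the lists that follow, some genes were tested only because they were bright in 1 tissue. For these, as for such members, passing between tissues was in part set by the filter. In this set of 14527 genes 46.7% passed between C middle intestine and C stomach, 23.9% higher and 22.8% lower in middle intestine, and 40.8% passed in OH rats. Between OH and C, 0% passed in stomach and 0.234% in middle intestine, and none of the genes in the lists of this pathway did in limma.

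Wnt ligands were spread over both tissues. Of 15 tested, 5 were higher in C middle intestine, 7 lower and 3 not past the threshold, with a median of -0.25. Wnt3, which Paneth cells supply to the crypt base, was higher by 4.34 ± 0.46 (adjusted p = 3.8e-06), with 1 of 4 C stomach arrays well above background, and Wnt2 by 2.97 ± 0.52. Wnt3 was tested through middle intestine arrays alone. Wnt10a and Wnt16 were lower by -4.34 ± 0.28 and -3.92 ± 0.40. Among 13 receptors 2 were higher and 3 lower, with a median of -0.11, among them Ror2 (1.89 ± 0.55), Fzd10 (-1.16 ± 0.18) and Fzd3 (-1.07 ± 0.25). Fzd4 was not well above background in C middle intestine and was at least 4.85-fold higher in stomach.

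Of 4 genes of the R-spondin axis 1 passed. Lgr4, the relative of Lgr5 that also binds R-spondins, was lower in middle intestine by -1.55 ± 0.17 (adjusted p = 5.9e-06). Secreted inhibitors split, 3 of 6 higher and 2 lower with a median of 1.07. Sfrp2 was lower in C middle intestine, where no array was well above background (adjusted p = 0.00019), as was Wif1, by -2.73 ± 0.21 with 1 of 4 arrays there well above background, whereas Frzb and Sfrp5 were higher in middle intestine by 1.88 ± 0.50 and 1.50 ± 0.35. Of 17 intracellular members 2 were higher, 3 lower and 12 did not pass. The scaffold Axin1, the relative of Axin2 that is not a feedback target, was lower by -0.69 ± 0.09 and Pygo2, a partner of β-catenin in the nucleus, by -0.53 ± 0.13, and the factors Tcf7 and Tcf7l2 were higher by 1.00 ± 0.32 and 0.46 ± 0.16.

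Other Wnt targets were split. Of 9, 2 were higher in C middle intestine, 5 lower and 2 not called, with a median of -1.02. Nkd1, a feedback inhibitor like Axin2, was higher by 1.77 ± 0.44 and its relative Nkd2 by 1.52 ± 0.41, while Tiam1 was lower by -2.03 ± 0.28 and Tnfrsf19 at least 6.05-fold lower. Other crypt and stem cell genes were as mixed, with 2 of 11 higher, 3 lower and a median of 0.03. Cdca7 and Hopx were higher by 2.83 ± 0.22 and 1.70 ± 0.22, and Phlda1 and Msi2 lower by -1.70 ± 0.27 and -0.99 ± 0.18.

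**Figure D5:**
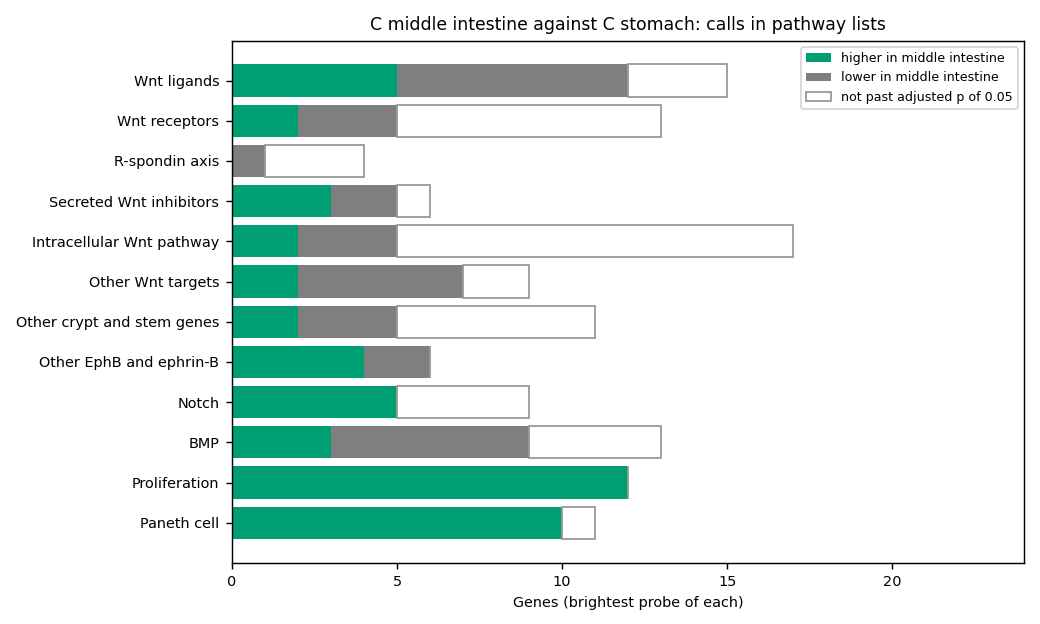
For 12 gene lists, the bars count genes higher, lower and not called between C middle intestine and C stomach (limma, adjusted p of 0.05, 1 probe per gene). Proliferation and Paneth genes were called only in the higher direction, whereas Wnt ligands, other Wnt targets and BMP genes were split.

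The system of EphB receptors and ephrin-B ligands changed in all 6 other members, 4 higher and 2 lower, with a median of 1.03. Ephb1 and Ephb4 were higher in middle intestine, as was Ephb2, by 2.00 ± 0.38 and 1.19 ± 0.16, and the ligand Efnb3 by 1.08 ± 0.28. Ephb6 was lower, as was Ephb3, by -1.20 ± 0.25. Of 9 Notch genes 5 were higher and 0 lower, with a median of 0.75. Atoh1, the switch to secretory cells, was higher by 3.07 ± 0.24, the ligands Dll1 and Jag1 by 1.58 ± 0.24 and 0.75 ± 0.20, and Gfi1, which acts after Atoh1, was at least 11.6-fold higher. Of 13 BMP genes 3 were higher and 6 lower, with a median of -0.42. The 3 higher genes were the antagonists Grem1, Chrdl1 and Chrd, by 3.86 ± 0.69, 1.92 ± 0.75 and 1.51 ± 0.31. Among the 6 lower genes the ligand Bmp5, not well above background in C middle intestine, was at least 2.55-fold lower.

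All 12 proliferation genes were higher in C middle intestine, with a median of 0.85, and all 12 in OH rats, with a median of 0.83. Mcm4, which takes part in starting replication, was higher by 1.22 ± 0.21, the mitotic kinase Cdk1 by 1.04 ± 0.11, its cyclin Ccnb1 by 0.97 ± 0.19 and Mki67 by 0.95 ± 0.19. Of 11 Paneth cell genes 10 were higher, with a median of 5.72, among them the defensins Defa24 (8.26 ± 0.60) and Defa10 (7.15 ± 0.44). The mean of the Paneth list was 3.82 to 4.36 on C middle intestine arrays and 3.20 to 3.84 on OH middle intestine arrays. Between OH and C middle intestine 0 of 11 Paneth genes passed (limma, smallest adjusted p = 0.21), beside 0.234% of all genes. OH stomach replicate 2 stood apart with 0.34 against -1.11 to -1.0 on the other OH stomach arrays, and its Olfm4 value of -4.91 lay within the range of its group. Among C stomach arrays replicate 3 stood apart less widely, at -0.59 against -1.16 to -1.14 on the others.

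Likeness to other genes was measured as the mean absolute difference of log2 ratios over the 16 arrays, each probe centred on its own mean. Nearest to Olfm4 were Vipr1, Itln1 and Aldh1b1, at 0.30, 0.35 and 0.37, while Olfm4 itself had an SD of 3.23 over the arrays. Nearest to Axin2 were Ap1ar, Ets2 and Tmem65, at 0.19, 0.21 and 0.22. Both probes of Gprin3, at 0.26 each, and Tp53i11 at 0.28 came nearest to Ascl2. For Prom1 these were Pfkfb1, Acot7 and Hip1r (0.15 to 0.17), for Ephb2 Tmie, Kif23 and LOC690422 (0.13 to 0.15), and for Ephb3 Klhl21, Socs5 and Homer2 (0.12 to 0.15). The brighter probes of Lgr5 and Sox9, which did not pass the threshold between tissues, were nearest to RGD1559971, Zfp28 and Smarcad1 (0.22 to 0.24) and to RGD1560328, Isca2 and LOC679586 (0.07 to 0.08).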

How the data were processed

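Stomach and middle intestine of C and OH rats were measured on 16 arrays with 2 channels, Cy5 for tissue and Cy3 for the pool. Files from Agilent Feature Extraction were deposited by the authors (version 10.10.1.1 in the file headers, 10.7.3.1 in the processing notes), with processed intensity after background subtraction and Lowess normalization, and a table of log10 ratios, used as an alternative, which equals the scanner's log ratios for 15 arrays and to 0.005 for the other. Spots marked as outliers were left out, and log2 ratios of Cy5 to Cy3 were averaged by probe. A probe was tested if its Cy5 signal was well above background in all 4 rats of some group and no group had fewer than 3 values. Of 30367 probes 9193 were left out. A model with a mean for each of the 4 groups was fitted to the ratios by lmFit and eBayes (limma 3.58.1, R 4.3.3), and p-values were adjusted by Benjamini-Hochberg over all 21174 probes at 0.05. Exact permutation tests of 4 against 4 arrays, two-sided, allow no p under 0.029. A probe not well above background on any array of a group was given as a bound, the bright group's mean against the higher of the lowest signal well above background and the probe's own signal, after Aquantile scaling, and it is open to dye bias because no dye swap was made. The number of arrays limits the precision. The steps were tested on simulated data. The methods' analysis of variance with Tukey's test was an alternative. The members and lists were chosen with earlier results of these data known. All member probes were named, and in the pathway, crypt and proliferation lists the called genes with the largest change, up to 4 per list. Genes of cell type lists were picked after their values were seen. Probe positions are those of the array design (rn4), and gene symbols are the design's; 6 members matched RefSeq by accession. Whether arrays of stomach and intestine with the same number came from the same rat is not given in the sources used here, nor how rats of a group were spread over litters, so that p-values measure the spread between these arrays. The closing section gives the effect of the alternatives.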

Additional observations from a re-analysis of the deposited data

Results flagged for a closer look

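Ephb3 on C middle intestine replicate 3 lay far from the other arrays of its group. Its log2 ratio was -0.50 against 0.25 to 0.26 on the other 3 arrays, so that its gap to the nearest array was 0.985 of the group's range, above Dixon's 95% critical value for 4 values. The spot was well above background. Of 44 groups of 4 values tested over the member probes this was the only such case, and chance gives about 2.2 at 1 in 20. Without this array Ephb3 was still lower in C middle intestine than in C stomach, by -0.74, at an adjusted p no higher than 0.0067 whichever array was left out.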

How the results depend on the processing

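The counts of member probes called kept within 1.5 times the value given under every alternative: 0 for each comparison of OH with C and for the difference in response, 6 to 9 between tissues in C rats and 6 to 8 in OH rats. The lower ends came from fewer probes being tested, 7 with the demand that a probe be well above background on all arrays and 8 with the brightest probe of each gene, and from leaving out single arrays, 7 to 9 in C rats and 6 to 8 in OH rats. Leaving out the 3 arrays that stood apart on Gast and Pdx1, chosen after seeing the data, gave 8 and 7. With the methods' Tukey test 0 members passed between OH and C, beside 3.35% of all probes in stomach and 4.42% in middle intestine, and 7 and 7 between tissues, beside 37.6% in C and 33.6% in OH rats. Settings that kept all arrays or left out these 3 lost 13 calls of single probes, all of them calls of Ephb2 or the second Sox9 probe in C rats or of the Prom1 probes in OH rats.

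C and OH arrays come from different rats. Between tissues, same-numbered arrays had correlations of deviations of 0.058 to 0.25 in C rats, where 3 arrays of 4 correlated best with their own number, and -0.12 to 0.32 in OH rats, where 2 did. Since not every pair was above 0.1, the numbers were not taken as pairs. With the replicate number as a block, 8 and 8 member probes passed between tissues and 0 between OH and C, and the call lost was that of Ephb2 in C rats (0.45, adjusted p = 0.057).

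Signs turned only for differences that had not passed. With Cy5 alone the differences between OH and C in stomach were -0.53 for the first Lgr5 probe, -0.044 for Axin2, 0.060 for Olfm4, and -0.21 and -0.15 for the Sox9 probes. In middle intestine they were -0.60 for Lgr5, 0.0053 for Ascl2, 0.22 for Olfm4, and -0.32 and -0.26 for Sox9. The difference in response was -0.072 for Lgr5 and -0.12 for the second Sox9 probe, and the first Sox9 probe differed between tissues by 0.18 in C and 0.067 in OH rats. Scaling the arrays to a common spread gave 0.26 for Olfm4, -0.025 and -0.10 for the Sox9 probes in stomach and -0.034 for the second Lgr5 probe in middle intestine. It gave differences in response of -0.061 for Ascl2, -0.81 for Olfm4, 0.088 for the first Sox9 probe and 0.12 for Ephb3. Normexp with loess gave 0.022 for the response of the first Sox9 probe. Without the 3 arrays, Ephb3 in stomach was 0.050 and Ascl2 in middle intestine 0.052. The cause of these turns was not tested. Cy5 alone leaves out the division by Cy3, but its signal was taken after Lowess normalization, which uses both channels.

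Leaving out 1 array at a time turned signs within these ranges. Between OH and C in stomach they were -0.043 to 0.55 for the first Lgr5 probe, -0.096 to 0.24 for the second Sox9 probe and -0.18 to 0.072 for Ephb3. In middle intestine they were -0.13 to 0.51 for the second Lgr5 probe, -0.22 to 0.052 for Ascl2, -0.027 to 0.22 for the first Sox9 probe and -0.20 to 0.068 for the second Prom1 probe. The response ranged from -0.068 to 0.51 for Ascl2, -0.022 to 0.30 for Olfm4, -0.13 to 0.11 for the first Sox9 probe and -0.28 to 0.042 for Ephb3. The first Lgr5 probe between tissues in C rats ranged from -0.069 to 0.52.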

Other observations

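Genes of differentiated and other cell types were also compared between C middle intestine and C stomach. The counts are to be read beside the 46.7% of all genes that passed, 23.9% higher and 22.8% lower. Of 6 goblet cell genes 4 were higher and 2 lower in C middle intestine than in C stomach, with a median of 2.48: the trefoil peptide Tff3 was higher by 6.12 ± 0.33, whereas Agr2 and Spdef, which are not restricted to goblet cells, were lower by -1.94 ± 0.40 and -0.72 ± 0.28. Of 13 enterocyte genes 12 were higher, with a median of 2.70 in C and 3.51 in OH rats. Of 8 pancreatic genes 6 were lower in C middle intestine, with a median of -2.54, and of 7 forestomach genes 6 were lower, with a median of -3.68. Of 4 leukocyte genes 2 were higher, Ptprc by 2.15 ± 0.33 and Cd3e, not well above background in C stomach, by at least 5.40-fold. Smooth muscle genes passed for 2 of 8 and enteric glia genes for 0 of 4 (limma). The mean of the smooth muscle list ranged from -2.59 to 0.96 on OH stomach arrays and from -2.57 to -1.38 on C stomach arrays.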
